A study of Sus scrofa with 44 samples.

Results

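The genes described here are IGF2BP1, IGF2BP2, IGF2BP3, LIN28B and HMGA2, 5 of the 22427 genes in the deposited expression files. They were picked by name as RNA and chromatin regulators of fetal tissue, with their levels in these libraries already known. Their stage profiles are therefore a description and carry no test. The identifiers of 4 members came from a table that pairs Ensembl identifiers with symbols: ENSSSCG00000023128 (IGF2BP1), ENSSSCG00000011795 (IGF2BP2), ENSSSCG00000036695 (IGF2BP3) and ENSSSCG00000037612 (LIN28B). HMGA2 was taken as ENSSSCG00000034610 because the peaks of that identifier lie inside RefSeq's HMGA2 on its strand. An uncharacterised RefSeq gene overlaps HMGA2 on the opposite strand, and whether the authors' quantification used strand is not given in the sources used here.

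The samples were fetal pig longissimus dorsi, which runs along the back, taken 33, 40, 50, 60, 70 or 95 days post coitus. These 6 stages are called E33, E40, E50, E60, E70 and E95, and each had 3 input and 3 immunoprecipitated libraries, all rRNA-depleted. PK15, a kidney cell line of pig, supplied another 8 libraries. Sets of 2 input and 2 immunoprecipitated libraries were made from its polyA RNA and again from its rRNA-depleted RNA. The assay was MeRIP-seq, in which RNA fragments that carry N6-methyladenosine (m6A) are enriched with an antibody and compared with input RNA. No treatment, genotype, breed, litter or sex is used to define a group, and the labels do not say whether replicates are separate fetuses, so the spread between libraries may be technical. The expression values were the authors' TPM in the 18 muscle input libraries, and the peaks were the authors' calls in 8 lists, 1 per stage and 1 per PK15 preparation. The series was designed to follow m6A through muscle formation before birth.

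IGF2BP1, IGF2BP2 and IGF2BP3 are paralogous RNA-binding proteins with RRM and KH domains. They bind mRNAs, protect them from decay or hold them from translation, and have been described as readers of m6A. LIN28B binds precursors of the let-7 microRNAs and blocks their maturation, and HMGA2 is a chromatin protein whose mRNA is a classical let-7 target. The members other than IGF2BP2 are best known from embryos and tumours, and IGF2BP2 is known for its part in myoblast growth.

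The sequences shown first are those under the coding m6A peaks, because the muscle peaks of IGF2BP1 all lie in coding sequence and the peak of HMGA2 shared by 2 stages lies over its start codon. They were read from the RefSeq genome of Sscrofa11.1 in the sense of the gene. Capitals mark GGAC, a core of the m6A sequence context. The first is the IGF2BP1 peak at E40 in exon 6 of 15 (chr12:25232572-25232719, + strand), the next the second IGF2BP1 peak at E33, which crosses an intron into exon 8 (chr12:25233935-25235561, + strand). The last is the coding part of the HMGA2 peak at E40, which starts at the ATG and crosses an intron (chr5:30189327-30192079, + strand).

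IGF2BP1 at E40: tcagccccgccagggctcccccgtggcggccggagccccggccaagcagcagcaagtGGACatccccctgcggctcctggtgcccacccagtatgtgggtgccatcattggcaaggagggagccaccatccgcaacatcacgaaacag
IGF2BP1 at E33: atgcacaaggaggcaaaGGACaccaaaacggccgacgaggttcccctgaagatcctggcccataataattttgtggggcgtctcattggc
HMGA2 at E40: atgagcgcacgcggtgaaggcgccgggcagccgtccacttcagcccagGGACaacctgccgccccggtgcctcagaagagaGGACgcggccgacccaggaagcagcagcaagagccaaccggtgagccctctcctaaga

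GGAC stood once in each IGF2BP1 stretch and 2 times in the HMGA2 stretch. Among the other member peaks it lay in the IGF2BP1 peak at E50, the E33 HMGA2 peak over the ATG and the IGF2BP3 peak. The exon 6 peak of IGF2BP1 at E33, the HMGA2 peaks in the 5' UTR and all IGF2BP2 peaks lacked GGAC. It is a common word: on the sense strand it was found in 69.5% to 77.2% of the peaks of the 8 lists, and the same letters reversed, CAGG, in 70.4% to 78.9%. A match is a description of the letters only.

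Between 37.4% and 72.4% of a library's TPM came from a single gene, so a shift in its share moves every other value. The levels below are therefore TPM after median-ratio scaling (scaled TPM), in which the median gene is level between libraries. From E33 to E95, the log2 change of the median gene among 13334 tested was -1.02 with TPM as deposited and 0.00 after scaling. As deposited, E40 replicate 2 and E50 replicate 3 had the lowest scaling divisors, 0.467 and 0.305, against up to 2.01 in the other libraries. The files sum to 1000000 TPM each, so the depth of each library is unknown. In whole tissue, fewer cells that make an RNA and less RNA per cell cannot be told apart.

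HMGA2 had the highest E33 level of the members and the largest and earliest decline. Its scaled TPM at E33 was 32.7, 32.6 and 33.1 in the 3 libraries. At E40 it was 6.70, 7.58 and 8.28, and at E50 it was 3.70, 3.94 and 3.52. It was 2.79, 2.38 and 2.65 at E60, 2.33, 1.79 and 1.96 at E70, and 0.751, 0.787 and 0.789 at E95. No library of any stage overlapped with those of the stage before it. The mean was 32.8 ± 0.230 at E33 and 0.776 ± 0.0218 at E95 (SD, n = 3 each), a ratio of 42.3, with single libraries giving 41.3 to 44.0. Of the whole decline in the mean between these stages, 78.9% had taken place by E40. The log2 change of scaled TPM + 1 was -4.25 (SE 0.08), and -5.16 with values as deposited.

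IGF2BP1 declined almost as far as HMGA2, in steps that ran over the whole series. Its scaled TPM was 21.8, 21.1 and 23.6 at E33, 11.99, 14.7 and 12.2 at E40, and 6.23, 6.62 and 9.01 at E50. The values were 3.99, 5.04 and 5.67 at E60, 2.61, 2.31 and 2.27 at E70, and 0.301, 0.677 and 0.778 at E95. Here too every stage lay below the one before it with no overlap. The mean went from 22.2 ± 1.30 to 0.585 ± 0.251 (SD, n = 3 each), a ratio of 37.9, with 27.1 to 78.5 between single libraries. Of the decline in the mean, only 42.6% had taken place by E40, and 91.6% by E70. By ratio the last step was the largest, 4.09-fold from E70 to E95, against 1.71-fold from E33 to E40. The step from E70 to E95 also spans the most days, so these ratios are not rates per day. The log2 change was -3.88 (SE 0.15), and -4.74 as deposited.

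LIN28B was the scarcest member, and its mean over the 18 libraries lay under the minimum of 1 TPM set for testing, which the other 4 members passed. At E33 it had a scaled TPM of 1.12, 1.00 and 0.891. Values at E40 were 0.402, 0.275 and 0.423, and at E50 0.190, 0.204 and 0.346. They were 0.125, 0.129 and 0.249 at E60, 0.151, 0.124 and 0.124 at E70, and 0.0469, 0.117 and 0.0508 at E95. The E33 libraries lay above all others and the E95 libraries below all others, while E40, E50, E60 and E70 each overlapped with the next of these 4. The mean was 14.1-fold lower at E95 than at E33 (7.63 to 23.9 between single libraries), and 68.4% of the decline had taken place by E40. The log2 change of scaled TPM + 1 was -0.90 (SE 0.06), which understates the change of a gene at this level, and -1.35 as deposited.

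IGF2BP2 began at the level of IGF2BP1 and declined slowly. Its scaled TPM was 21.7, 23.3 and 20.9 at E33 and 20.6, 18.3 and 22.2 at E40, which overlapped. It was 15.6, 17.6 and 13.7 at E50, 11.9, 11.08 and 11.6 at E60, and 10.1, 8.68 and 8.24 at E70, each below the stage before. The E95 values of 5.83, 6.85 and 8.77 overlapped with E70. The mean went from 21.9 ± 1.23 to 7.15 ± 1.49 (SD, n = 3 each), a ratio of 3.07 with 2.38 to 3.99 between single libraries. The log2 change was -1.51 (SE 0.13), and -2.66 as deposited.

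After scaling, the libraries of IGF2BP3 lay at 3 levels, the last held by E95 alone. With no stage between E70 and E95, a step and a slope cannot be told apart there. Its scaled TPM was 11.7, 13.1 and 11.3 at E33 and 12.7, 11.5 and 12.6 at E40. A middle level held at 8.18, 10.01 and 7.99 at E50, 8.35, 8.70 and 9.16 at E60, and 8.49, 9.45 and 8.62 at E70. The E95 libraries, at 4.24, 3.91 and 5.30, lay below all the others. Within each of the first 2 levels the stages overlapped. The change from E33 to E40 was 0.03 after scaling and -0.64 as deposited, and that from E60 to E70 was 0.02 and -0.29. The change from E50 to E60 was 0.01 after scaling and 0.71 as deposited. The mean went from 12.01 ± 0.989 at E33 to 4.49 ± 0.726 at E95 (SD, n = 3 each), a ratio of 2.68 with 2.12 to 3.36 between single libraries. The log2 change was -1.25 (SE 0.10), and -2.34 as deposited.

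**Figure D1:**
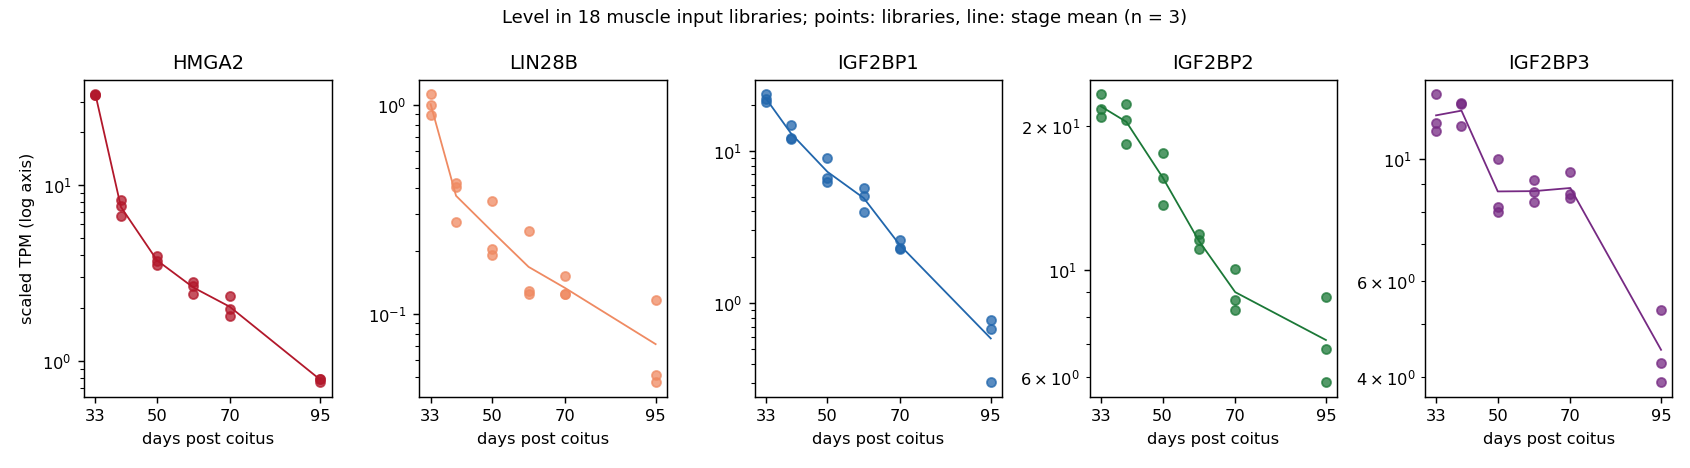
Scaled TPM of the 5 members on a log axis against days post coitus, with 1 panel per gene, a point for each of 18 input libraries and a line through the stage means (n = 3). HMGA2 and LIN28B drop most between E33 and E40, IGF2BP1 declines at every step, IGF2BP2 declines slowly, and IGF2BP3 stays near 8.7 to 8.9 from E50 to E70.

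All 5 members had their 3 E95 libraries below their 3 E33 libraries, as did 28.2% of the 13334 genes tested. Because the members were chosen for such profiles, nothing is read from that count. From E33 to E40, IGF2BP1, LIN28B and HMGA2 were lower without overlap (3 of 5 members, against 19.7% of all genes), and the means of IGF2BP2 and IGF2BP3 at E40 were 92.9% and 102% of those at E33. With TPM as deposited the log2 change of IGF2BP3 at this step turned negative (-0.64), and that of IGF2BP2 stayed negative (-0.80). Under quantile normalization the change of IGF2BP2 turned positive. From E40 to E50 the 3 IGF2BP genes and HMGA2 were lower without overlap (4 of 5, against 7.13%), and with TPM as deposited all 4 overlapped. From E50 to E60 and from E60 to E70 these were IGF2BP1, IGF2BP2 and HMGA2 (3 of 5, against 7.42% and 9.57%), and as deposited all 3 overlapped between E50 and E60. From E70 to E95 the 4 members other than IGF2BP2 did so (against 15.9%). With TPM as deposited, the change from E50 to E60 had the opposite sign for IGF2BP1 (0.21), IGF2BP2 (0.34), LIN28B (0.04) and HMGA2 (0.17), while the median of all genes tested moved by 0.63 at that step.

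**Figure D2:**
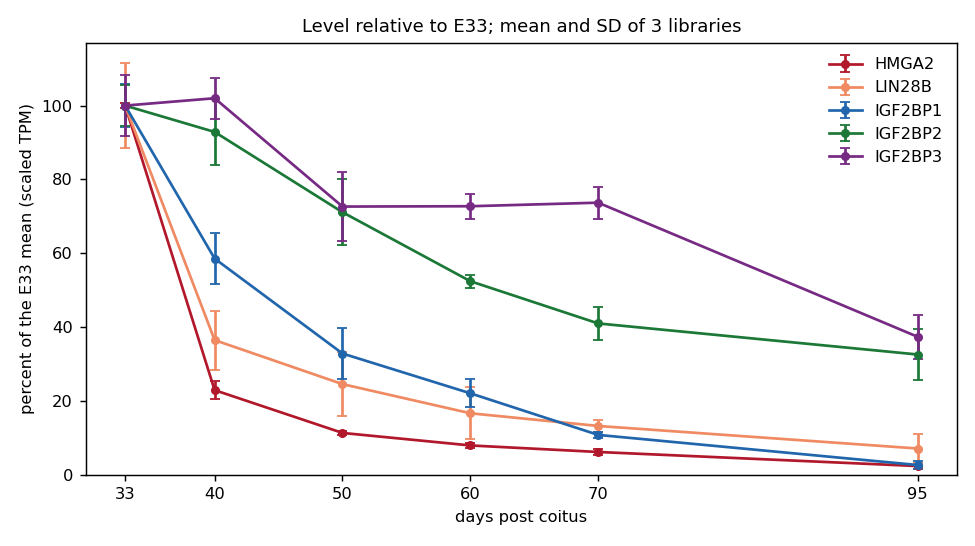
Mean scaled TPM of each member as a percentage of its own E33 mean, with the SD of 3 libraries, against days post coitus. At E40 HMGA2 stands at 22.9% and LIN28B at 36.5%, IGF2BP1 at 58.6%, and IGF2BP2 and IGF2BP3 at 92.9% and 102%.

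Ratios of 2 genes within a library are free of the scaling, and TPM allows them because it is per length. IGF2BP1 and IGF2BP2 were level at E33, with a geometric mean ratio of 1.01, and log2 ratios from -0.14 to 0.18 in the 3 libraries. The ratio then went to 0.637 and 0.463 at E40 and E50, to 0.422 and 0.268 at E60 and E70, and to 0.0789 at E95. At E95 the log2 ratio of IGF2BP1 to IGF2BP2 was -4.21 to -3.31, below every earlier library. IGF2BP2 was thus the most abundant of the 3 paralogs at E95 per length, with IGF2BP3 at 0.632 of its level.

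The ratio of IGF2BP3 to IGF2BP2 was 0.547 at E33, 0.602 at E40 and 0.559 at E50. It was higher at E60 (0.759) and E70 (0.986), where no library overlapped with the earlier stages, and 0.632 at E95. The ratio of HMGA2 to IGF2BP2 dropped from 1.496 at E33 to 0.369 at E40, held at 0.226 to 0.240 from E50 to E70, and was 0.112 at E95. The ratio of HMGA2 to IGF2BP1 was 1.40 to 1.55 in the E33 libraries, with a mean of 0.580 at E40. At E95 the libraries were far apart, at 2.42, 1.16 and 1.01, and none lay within the E33 range.

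**Figure D3:**
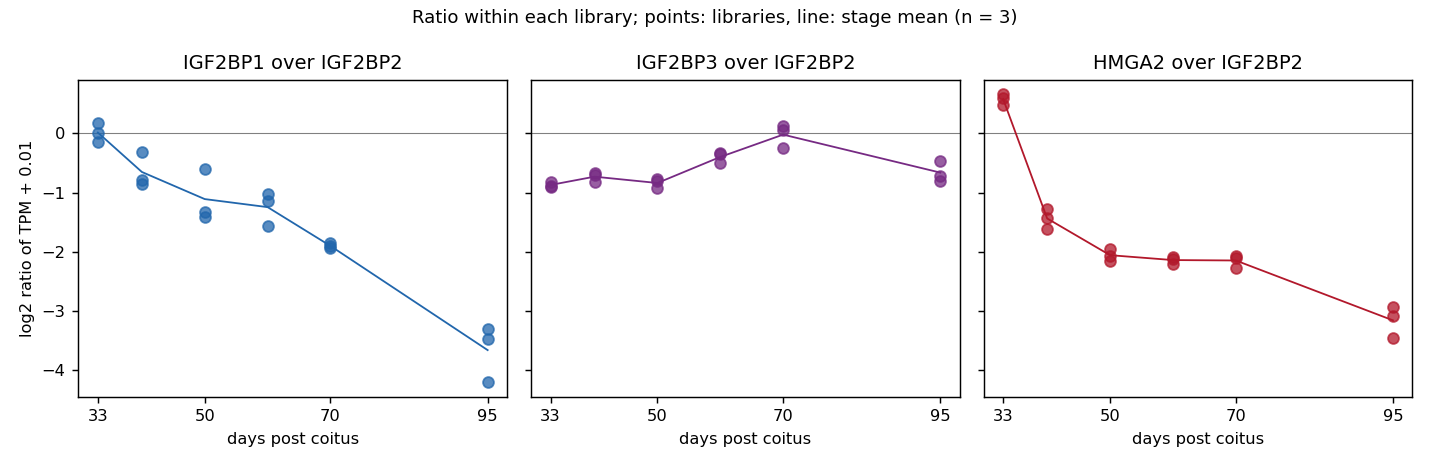
Log2 ratio of TPM (+ 0.01) of 3 pairs of members within each of 18 input libraries against days post coitus, with a line through the stage means (n = 3). IGF2BP1 over IGF2BP2 falls from about 0 to a mean of -3.66, IGF2BP3 over IGF2BP2 comes closest to 0 at E70, and HMGA2 over IGF2BP2 makes most of its drop by E40.

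Whether reads of the 3 paralogs were kept apart was not tested. Only the longest identical run of coding sequence was measured for each pair, and the quantifier is not known. The longest identical run was 17 bases between IGF2BP1 and IGF2BP2, 30 between IGF2BP1 and IGF2BP3, and 17 between IGF2BP2 and IGF2BP3, out of coding lengths of 1734, 1800 and 1740 bases.

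The muscle libraries held their defining markers at every stage, and the summed scaled TPM of 9 muscle genes ranged from 3489 to 4109 at E33 and from 14107 to 19881 at E95. Of these genes 6 were called higher at E95, and MYH3 fell by 1.08 on the log2 scale (limma adjusted p 0.000186). MYOG (-0.08) and TNNT1 (0.06) were not called. Markers of other cells moved over the same stages as the members. The 8 neuron and Schwann cell genes matched, of 9 listed, summed to 114 to 148 at E33 and 26.5 to 31.2 at E40, the step at which HMGA2 and LIN28B fell most, with none of the 8 at 0. The 7 cartilage genes summed to 133 to 186 at E33, 83.5 to 143 at E40 and 37.2 to 48.1 at E95. The 7 erythroid genes matched, of 8 listed, summed to 87.9 to 236 at E33, where KLF1 was at 0, and to 14.4 to 48.2 at E40. Embryonic globin HBZ carried that drop, with a log2 change of -5.42 from E33 to E40, while HBM (0.23), ALAS2 (0.41) and AHSP (1.25) had higher means at E40 and were not called. The 7 genes of dividing cells matched, of 10 listed, went from 115 to 129 at E33 down to 42.4 to 59.6 at E95, and those of endothelium (6 genes) from 25.4 to 33.1 up to 89.7 to 102. The sum of 6 fibroblast genes, most of it COL1A1 and COL3A1, went from 2251 to 3008 up to 4788 to 7437, while PDGFRA and LUM fell by 1.20 and 0.60 on the log2 scale (limma adjusted p 1.42e-05 and 0.0108). Sums of 6 macrophage genes went from 41.1 to 53.3 up to 71.3 to 116. The part of these cells in the members' levels was not tested.

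Across the 18 libraries the members' log2 levels were correlated. Pearson's r was 0.965 for LIN28B with HMGA2, 0.954 for IGF2BP1 with IGF2BP2, 0.920 for IGF2BP1 with HMGA2 and 0.653 for the least alike pair, LIN28B with IGF2BP3. These are descriptions over libraries of which 3 share each stage. Among the genes tested that have a symbol (10753 for each tested member), the profile most like HMGA2 was that of REV1, a translesion DNA polymerase (r = 0.991). Next came CDH2, the N-cadherin gene (0.990), then LGR4, UCHL1 and LRIG3 (0.980 for the last). CDH2 went from a mean scaled TPM of 10.3 at E33 to 0.219 at E95, and UCHL1, a ubiquitin hydrolase abundant in neurons, from 8.12 to 0.222. For LIN28B the closest were HEPH (0.974), CHRNA4, a neuronal acetylcholine receptor subunit (0.970), HMGA2, REV1 and TLE4. For IGF2BP1 they were GLI3, a transcription factor of Hedgehog signalling (0.983), TENM4, VGLL3, GPR37 and AGPAT4 (0.970). GLI3 had a mean scaled TPM of 22.8 at E33, close to that of IGF2BP1, and 4.30 at E95. For IGF2BP2 they were ADNP (0.979), CDK14, GXYLT1, PRICKLE1 and E2F3 (0.957). For IGF2BP3 they were PIP4K2A (0.964), ARHGAP28, NPAS3, CTNND2 and SQLE, an enzyme of sterol synthesis (0.954).

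The m6A peaks of the members were few and mostly early. The 8 lists held 15 peaks in members: 4 in IGF2BP1, 6 in IGF2BP2, 1 in IGF2BP3, 4 in HMGA2 and 0 in LIN28B. In muscle, 7 of them were at E33, 2 at E40 and 2 at E50, and 0 at E60, E70 or E95. The whole lists of the first 3 stages held 8685, 4928 and 7058 peaks, and those of the last 3 stages 7545, 8499 and 8109. The part of list length in these counts was not tested. There is 1 list per stage, and no replicate of a peak call. The fold enrichment and p-value of each peak are those of the authors' deposited lists.

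IGF2BP1 had its peaks inside the coding sequence, with the peak midpoints 899 to 1210 bases before the stop codon. At E33 it had a peak in exon 6 (chr12:25232512-25232630) with a fold enrichment of 1.84 and a p-value of 2.0e-27. A second E33 peak, centred in exon 8, had a fold of 1.70 and a p-value of 2.1e-08. The exon 6 peak was called again at E40 with a fold of 2.90 and at E50 (chr12:25232572-25232690) with a fold of 2.52. The 3 exon 6 peaks shared 59 bases, chr12:25232572-25232630, and the E33 peak ended inside the GGAC printed in capitals above for E40. All 4 folds were low for their lists, at the 2.0th to 18.1th percentile.

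Whether a gene has a peak varies with its level, so each member was set beside the genes within 1.5-fold of its mean TPM as deposited at that stage. Of genes like IGF2BP1, 56.2% had a peak at E33, 34.7% at E40 and 36.7% at E50, where IGF2BP1 had one. Of its like at E60, when its mean TPM was 6.29, 29.6% had a peak and IGF2BP1 had none. At E95 only 3.47% of its like had a peak.

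IGF2BP2 carried its peaks in the 3' UTR of exon 16, in muscle and in PK15 cells. At E33 it had a peak about 957 bases past the stop codon (chr13:123486313-123486553, - strand, fold 2.77, p-value 4.0e-14) and one across the stop codon (chr13:123487272-123487452, - strand, fold 1.99, p-value 3.7e-10). The former was called again at E50 with a fold of 2.26 and in rRNA-depleted RNA of PK15 with a fold of 2.25, and the 3 peaks shared 91 bases. PolyA RNA of PK15 had another 3' UTR peak (fold 2.98) and a peak in the 5' UTR of the transcript with the longest coding part (chr13:123649953-123650043, - strand) with a fold of 32.8, at the 94.9th percentile of its list. That was the only member peak of 15 above the median fold of its list. None of the 6 peaks of IGF2BP2 held GGAC. Of genes at its level, 55.9% had a peak at E33 and 45.6% at E50, where it had one. Of its like at the stages without a peak, 41.0% had one at E40, 47.2% at E60, 46.4% at E70 and 41.3% at E95.

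IGF2BP3 had no peak in muscle at any stage. Of genes at its level, 50.9% had one at E33, 34.7% at E40 and 42.3% at E50, and 42.2%, 46.4% and 31.3% had one at the 3 later stages. Its only peak was in polyA RNA of PK15, in the 3' UTR about 1046 bases past the stop codon, with a fold of 4.80 and a p-value of 7.9e-36. The GGAC of this peak and the bases around it (chr9:92105988-92106017, - strand) are shown because it is the only site of this paralog.

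IGF2BP3 in PK15: atgcagcccctgtGGACttgaaactgattg

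The HMGA2 peaks lay in the 5' UTR and around the start codon. At E33 it had 2 peaks in the 5' UTR, with folds of 2.69 (chr5:30188571-30188750) and 3.37 (chr5:30188869-30189107), and another that ran over the ATG through exons 1 to 3 (chr5:30189256-30202862, fold 2.17, p-value 1.0e-124). The last was the only one of these called at E40, where the peak printed above had a fold of 3.44 and all its 150 bases lay inside the E33 peak. At E33, 62.1% of genes at the level of HMGA2 had a peak, and at E40 27.1%. From E50 to E70 it had none, nor did 75.9% of its like at E50 and 85.4% at E70. LIN28B had no peak in any list, and only 4.94% of genes at its level at E33 had one.

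**Figure D4:**
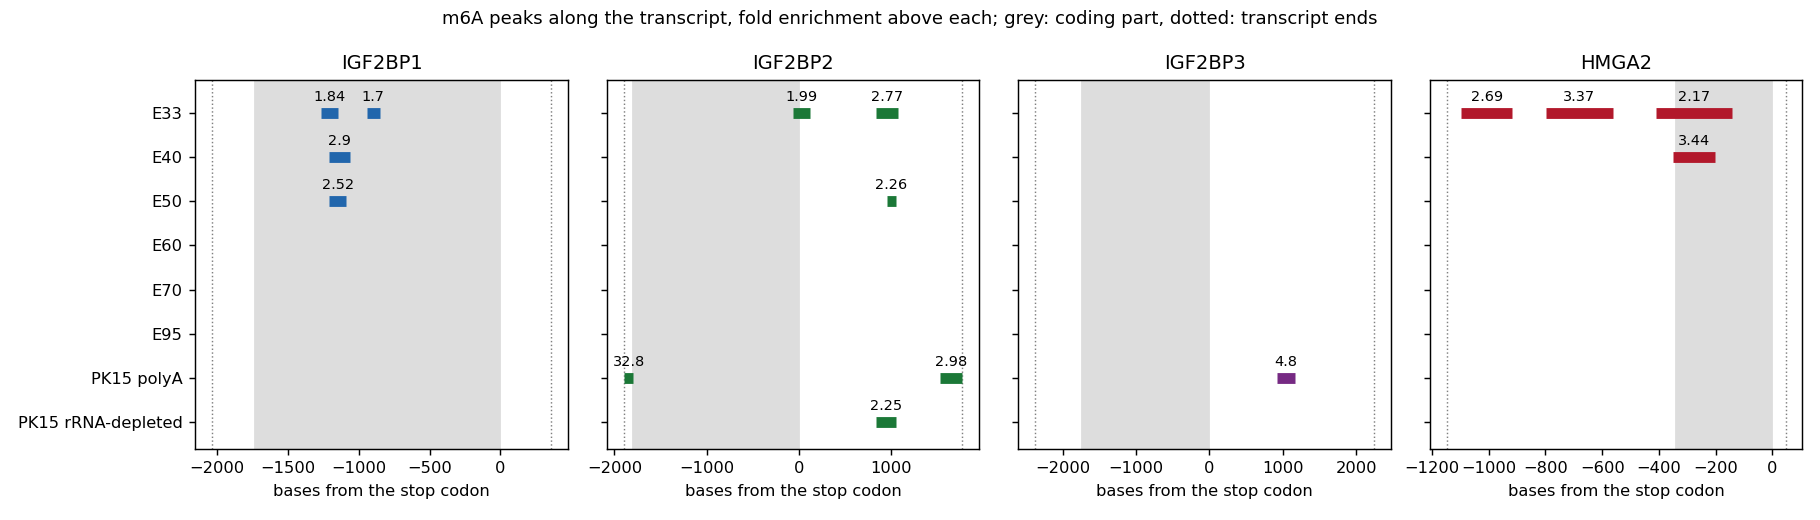
Peaks of 4 members in the 8 lists, drawn along the transcript in bases from the stop codon, with the authors' fold enrichment above each bar. Grey marks the coding part and dotted lines the transcript ends. IGF2BP1 peaks lie in the coding part at E33, E40 and E50, HMGA2 peaks around the start codon at E33 and E40, and IGF2BP2 peaks mostly past the stop codon in muscle and PK15.

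The let-7 microRNAs link LIN28B to HMGA2, so the complement of their seed was looked for in all members. RefSeq annotates 9 mature let-7 entries on the 5' arm of the pig genome, and all share the seed (bases 2 to 8) in capitals here. Both sequences are shown because the sites below pair with that seed (let-7a, chr3:43465677-43465698, and let-7g, chr13:34406195-34406216, - strand).

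let-7a: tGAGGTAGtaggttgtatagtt
let-7g: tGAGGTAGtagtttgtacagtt

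The search took CTACCTC on the sense strand in the 3000 genome bases after each gene's furthest stop codon. HMGA2 held 4 and LIN28B 3, and each IGF2BP gene 1. Of 19534 such windows of coding genes, 14.9% held 1 or more, 1.21% held 2 or more and 0.113% held 3 or more. The reversed letters, CTCCATC, were in 25.2%, with 2 or more in 4.38% and 3 or more in 0.722%. Among the members, IGF2BP2 held 2 reversed matches, HMGA2 1, and IGF2BP1, IGF2BP3 and LIN28B 0. RefSeq gives HMGA2 transcripts with different stop codons. After the furthest one the annotated 3' UTR of HMGA2 ends after 108 bases and that of LIN28B after 915, so 3 of the HMGA2 matches and 2 of the LIN28B matches lie in genome past the annotated end. The first match of each member is inside its annotated 3' UTR and is followed by A, and these are printed with the match in capitals. They lie at chr5:30329533-30329562 (HMGA2, + strand), chr1:71295245-71295274 (LIN28B, + strand), chr12:25244592-25244621 (IGF2BP1, + strand), chr13:123486090-123486119 (IGF2BP2, - strand) and chr9:92106458-92106487 (IGF2BP3, - strand).

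HMGA2: gccaacattcaatttCTACCTCagcagcag
LIN28B: ccctggttgggacgtCTACCTCatgcgagt
IGF2BP1: tgtgcgcgaagtaaaCTACCTCaaggtatg
IGF2BP2: aacacacaaaaaaagCTACCTCaggtgttt
IGF2BP3: tgcatttttactcaaCTACCTCaggtatca

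Matches were counted in 9938 other genes that were tested and had such a window. Their median log2 change from E33 to E95 was 0.00 in 8401 genes with no match, -0.03 in 1406 with 1, 0.03 in 125 with 2, and 0.12 in 6 with 3 or more. The share called lower at E95 was 25.1%, 27.1%, 22.4% and 33.3% in that order. For the reversed letters the medians were 0.00, -0.03, -0.05 and -0.13. No let-7 level was analysed here, and a match is not a measured site.

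The pathway around the members was described through 6 lists, tested with limma across all 13334 genes, of which 46.7% were called between E33 and E95 (22.8% higher and 23.8% lower at E95, adjusted p under 0.05). Of 74 genes tested in the lists, 37 were called, 16 higher and 21 lower, a share near that of all genes. With values as deposited 42 were called, 2 higher and 40 lower, where 48.5% of all genes were called (2.64% higher, 45.8% lower). The median log2 change of the 74 genes was -0.02, and that of all genes 0.00. Genes named here follow a rule on size of change, except NRAS and E2F6 as let-7 targets, PABPC4, FXR2, MYC, PLAGL1 and the HMG genes HMGN1, HMGN2, HMGN3 and SSRP1, which complete small counts and were chosen after their values were seen.

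The let-7 processing list has 16 genes of the machinery that LIN28B acts on, of which 10 were tested. One rose and 3 fell, with a median log2 change of -0.09 (as deposited 6 fell and none rose). TUT4, the uridylyltransferase that LIN28 recruits to let-7 precursors, went from 9.58 ± 1.11 to 12.6 ± 1.92 scaled TPM, a log2 change of 0.36 (limma adjusted p 0.0182) that was -0.80 as deposited. XPO5, which exports microRNA precursors, went from 16.0 ± 0.242 to 9.42 ± 1.95, a change of -0.72 (limma adjusted p 7.34e-05). DROSHA, the nuclear microRNA nuclease, fell by 0.49, and AGO2, which holds mature microRNAs, fell by 0.24 on the log2 scale. LIN28A, the paralog of LIN28B, averaged 0.0444 TPM over the 18 libraries, and TRIM71, another regulator of early embryos, 0.380, so neither was tested.

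Other textbook let-7 targets moved both ways. Of 24 tested, 5 rose and 8 fell, with a median log2 change of -0.11 (as deposited none rose and 15 fell). ARID3A, a DNA-binding protein, fell by 1.05 on the log2 scale, from 11.7, 9.60 and 10.6 at E33 to 4.58, 4.56 and 4.62 at E95 (limma adjusted p 0.000539). ACVR2A, an activin receptor, fell by 0.98 and E2F5, a cell cycle transcription factor, by 0.82. CDC34, a ubiquitin-conjugating enzyme, rose from 20.8, 16.1 and 18.1 to 55.5, 108 and 52.8, a log2 change of 1.85 (limma adjusted p 1e-05; 0.63 as deposited). IRS2 and INSR, of insulin signalling, rose by 1.02 and 0.75 (-0.19 and -0.33 as deposited). NRAS (0.47) and E2F6 (0.35) also rose, and were at -0.73 and -0.80 as deposited.

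Partners that bind RNA alongside IGF2BP proteins included the most changed gene of the lists. YBX3, a cold-shock domain protein, was at 24.3, 18.6 and 20.8 scaled TPM at E33 and at 289, 392 and 267 at E95. It rose by 3.82 on the log2 scale (SE 0.17, limma adjusted p 4.87e-10), and by 2.59 as deposited. Of 18 partners tested, 5 rose and 3 fell, with a median of 0.00 (as deposited 1 rose and 9 fell). FXR1, which muscle needs, rose by 1.17 and YBX1 by 0.99, and both were near or below 0 as deposited (-0.04 and -0.26). PABPC4 (0.76) and FXR2 (0.32) were the others that rose, at -0.47 and -0.85 as deposited. ILF2, which binds double-stranded RNA, fell by 0.92, and DHX9, an RNA helicase, by 0.47.

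Of mRNAs described elsewhere as IGF2BP targets, 9 of 13 listed were tested, 2 rose and 4 fell, with a median of -0.56 (as deposited 6 fell and none rose). ACTB, the zipcode mRNA through which IGF2BP1 was first described, was at 2786, 2507 and 3252 scaled TPM at E33 and at 1565, 1732 and 1121 at E95. Its log2 change was -0.97 (limma adjusted p 0.000819). CTNNB1 and IGF1R fell by 0.61 each, and MYC by 0.56 with overlapping libraries. LAMB2, a laminin subunit, rose by 2.02, from 89.8 ± 9.17 to 366 ± 24.7 (limma adjusted p 2.38e-07; 0.77 as deposited). NRAS, in both target lists, is given above. IGF2, the mRNA that gave the family its name, and H19 were not matched and were not analysed here.

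Among imprinted growth genes 11 of 15 listed were tested, 4 rose and 2 fell, with a median of 0.37 (as deposited 1 rose and 3 fell). DLK1, a Notch-like ligand of fetal muscle, went from 94.8, 63.3 and 86.4 to 361, 465 and 377, a log2 change of 2.30 (limma adjusted p 2.41e-08; 1.05 as deposited). MEST went from 222, 185 and 195 to 82.95, 67.9 and 90.4, a change of -1.31 (limma adjusted p 3.61e-06). ZDBF2 rose by 1.88 from a mean of 0.125, and PEG10 by 0.80 and PLAGL1 by 0.37 (-0.46 and -0.81 as deposited). GRB10, an adaptor that restrains insulin signalling, fell by 0.57.

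The HMG family, which shares DNA-bending or nucleosome-binding proteins with HMGA2, fell or was not called. Of 7 tested of 11 listed, 4 fell and none rose (5 fell as deposited), with a median of -0.58. HMGA1, the paralog of HMGA2, went from 56.1 ± 4.70 to 32.3 ± 9.73, a log2 change of -0.81 (limma adjusted p 0.00608), against -4.25 for HMGA2. HMGXB4 fell by 0.63, HMGB2 and HMGN1 by 0.58 each. The other 3 had log2 changes of -0.14 (SSRP1), -0.02 (HMGN3) and 0.05 (HMGN2), each with an unadjusted p above 0.05.

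**Figure D5:**
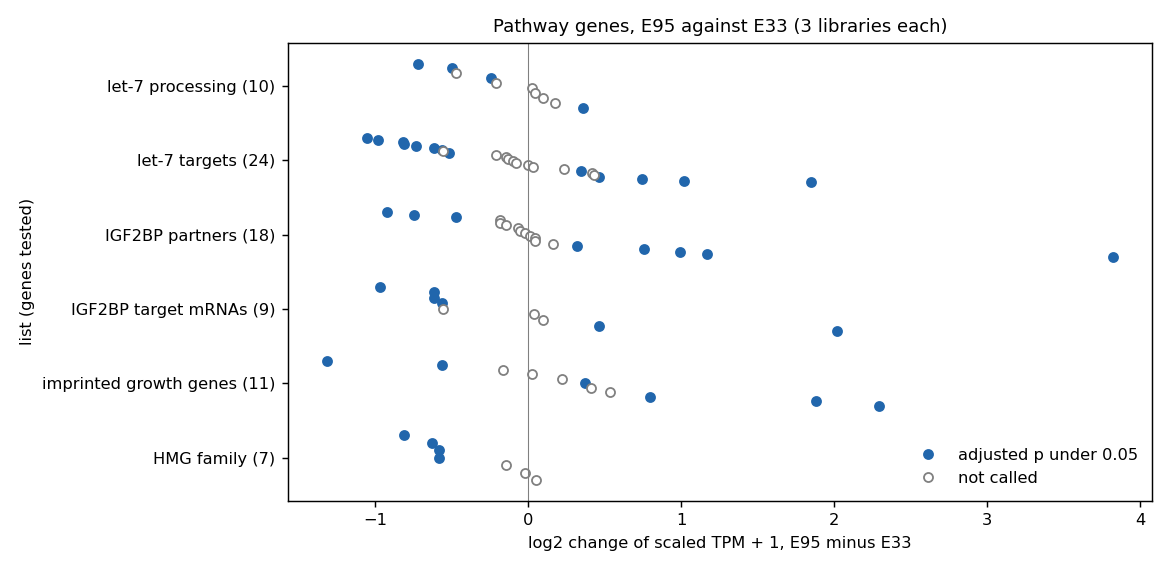
Log2 change of scaled TPM + 1 from E33 to E95 for the tested genes of 6 pathway lists, with 1 point per gene, filled where the limma adjusted p was under 0.05. Called genes lie on both sides of 0 in 5 of the 6 lists, with YBX3 furthest right at 3.82, and the called HMG genes all lie below 0.

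After scaling, more of the listed genes were called at the first and last steps than between them, as for all genes. The steps differ in length and the last spans the most days, so the counts are not rates of change. From E33 to E40, limma called 18 of 74 (11 higher, 7 lower), beside 21.0% of all genes (10.1% higher, 10.9% lower), and 1 with values as deposited, beside 4.87%. YBX3 (1.48), DLK1 (1.28) and PEG10 (1.17) had risen by E40, and IRS2 had fallen by 1.11 before its later rise. From E40 to E50 the calls were YBX3 and DLK1, both higher (2 of 74, beside 1.54% of all genes, 0.945% higher). For E50 to E60 and E60 to E70 limma called 0 of 74, beside 0.817% and 1.76% of all genes, with 8 and 7 at an unadjusted p under 0.05. From E70 to E95 it called 11 (4 higher, 7 lower), beside 13.5% of all genes (6.61% higher, 6.87% lower). As deposited it called 0, beside 0.285% of all genes, and 7 of the 74 had an unadjusted p under 0.05. IRS2 rose by 1.27 and MEST fell by 1.38 in that step.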

How the data were processed

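The muscle input libraries were deposited as TPM per Ensembl gene, computed by the authors per the file headers. The deposited peak lists give a fold ratio and a p-value per peak, per the file headers. The submitters' processing notes name Trimmomatic, HISAT2 and Sscrofa 11.1; the quantifier, the peak caller, its threshold and any pooling of replicates are not given in the sources used here. Members, lists and the rule for named genes were chosen with earlier results of these data known.

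TPM was divided by median ratios over 11974 genes and taken as log2(x + 1). limma 3.58.1 (R 4.3.3) fitted 1 mean per stage to 18 libraries with a mean-variance trend, for the 13334 genes averaging 1 TPM or more, with Benjamini-Hochberg adjustment and calls under 0.05. The standard error for LIN28B came from a fit with no filter. On simulated data for E95 against E33, 50 genes each were changed by -2, -1, 1 and 2 on the log2 scale. The limma fit recovered 47, 42, 39 and 48 of them in that order, and called 7 of 13134 unchanged genes. The simulation had independent normal noise, few changed genes and no scaling step, so it cannot show how calls depend on the scaling. Named list genes are up to 3 per list and direction with the largest change, called and without overlap between libraries, and the 5 genes most correlated with each member. Some listed genes are not reported here by name. A duplicate peak was dropped. Of 27739 junctions between peak blocks, 87.4% lay at RefSeq introns of Sscrofa11.1. Peaks were placed with the RefSeq transcript of longest coding part, using Python 3.11.15 and pysam 0.24.0. Alternatives covered scaling, pseudocount, filter, samples and a replicate block.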

Additional observations from a re-analysis of the deposited data

How the results depend on the processing

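The members' changes from E33 to E95 kept their sign under the alternatives run. Of the 16 list genes called higher at E95 after scaling, 11 had the opposite sign with TPM as deposited, and of the 21 called lower 0 did. Depth is unknown, 1 peak list per stage allows no test of a peak, and 3 libraries per stage limit the rest. With TPM as deposited the log2 changes from E33 to E95 were -4.74 (IGF2BP1), -2.66 (IGF2BP2), -2.34 (IGF2BP3), -1.35 (LIN28B) and -5.16 (HMGA2). With TPM rescaled without the 2 genes of highest mean they were -5.06, -2.21, -1.97, -1.87 and -5.35. A pseudocount of 0.1 gave -5.10 (IGF2BP1), -1.41 (IGF2BP3), -2.71 (LIN28B) and -5.23 (HMGA2), quantile normalization -0.81 (LIN28B) and -4.16 (HMGA2), and leaving out E40 replicate 2 and E50 replicate 3 together -0.98 (LIN28B) and -4.35 (HMGA2). Leaving out 1 library at a time, HMGA2 ran from -4.31 to -4.22. From E33 to E40, IGF2BP3 turned negative as deposited (-0.64) and IGF2BP2 turned positive under quantile normalization (0.03). Above the median fold of their lists lay 0 peaks of IGF2BP1, 1 of IGF2BP2, 0 of IGF2BP3 and 0 of HMGA2.

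For list genes called between E33 and E95, the rescaling without 2 genes gave 9 (let-7 processing), 16 (partners) and 7 (HMG family), and a fit to the 2 stages alone gave 2 for let-7 processing, as did leaving out E33 replicate 1 or E33 replicate 3 (range 2 to 4). For the 74 genes by step, values as deposited gave 1 (E33 to E40), 0 (E40 to E50) and 0 (E70 to E95). The rescaling without 2 genes gave 1 (E40 to E50), 1 (E50 to E60) and 22 (E70 to E95). Quantile normalization gave 1 (E60 to E70) and 18 (E70 to E95). Fits to 2 stages alone gave 10 (E33 to E40) and 0 (E40 to E50). Without E40 replicate 2 and E50 replicate 3 together the counts were 0 (E40 to E50) and 1 (E60 to E70). Leaving out 1 library at a time gave 11 to 23 (E33 to E40, lowest without E40 replicate 1 or E40 replicate 3), 0 to 4 (E40 to E50), 0 to 1 (E50 to E60), 0 to 1 (E60 to E70) and 9 to 17 (E70 to E95, highest without E95 replicate 3). The cause of these differences was not tested.

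Replicate numbers are shared between stages in the labels. The deviations of same-numbered libraries had r from -0.124 to 0.101 over 45 pairs (median 0.017). Those of libraries with different numbers had r from -0.129 to 0.116 over 90 pairs (median -0.003), so the ranges largely overlapped. Of 18 libraries, 8 correlated best with their own number, a count for which no chance level was worked out. With a replicate block the E95 against E33 counts were 4 (let-7 processing), 12 (let-7 targets), 8 (partners), 6 (IGF2BP targets), 6 (imprinted) and 4 (HMG family), and the steps gave 18, 2, 0, 0 and 11.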
